A study of Homo sapiens with 15 samples.

Results

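The 9 human miRNAs described here are hsa-miR-126-3p and hsa-miR-126-5p of endothelial cells, hsa-miR-1-3p of muscle, hsa-miR-199b-5p, hsa-miR-143-3p and hsa-miR-145-5p of fibroblasts and smooth muscle, hsa-miR-451a of red cell precursors, hsa-miR-223-3p of myeloid cells and hsa-miR-122-5p of liver, written below without the prefix. They were chosen by name, as markers of cells that an epithelial line should lack, out of a count table of 1619 miRNA entries. Of the 9 names, 8 have a row in the table. miR-145-5p has none and was not analysed here. The study sequenced small RNA from DiFi, a long-established human line of colorectal cancer, to try culture conditions for collecting secreted RNA carriers. The groups are filtered HDM (HF7 and HF6), unfiltered HDM (HF7 and HF6), cell pellets (HF7 and HF6), HF7 plate cells (plates 1, 2 and 3) and HF6 plate cells (plates 1, 2 and 3), with 1 library of HDM media and 1 of regular media. All carry the same line label with no treatment or genotype, and the sample names do not spell out HDM or HF. HDM medium without cells is not analysed here, so no value below has a background from cell-free medium beside it.

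A miRNA is cut from a hairpin in a longer transcript, and the strand loaded into an Argonaute protein pairs with messenger RNAs mainly through its seed, bases 2 to 8. Many miRNAs are made in nearly all cells, but some come from transcripts that a single lineage makes, so that their counts in a mixed sample are often read as traces of that lineage. miR-126 lies in an intron of the endothelial gene EGFL7 and strengthens the response of endothelial cells to VEGF, miR-1 is induced when muscle differentiates, and miR-451a, cut by Argonaute 2 without Dicer, accumulates in maturing red cells.

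The mature sequences are shown to compare them with the entries closest to them. They were read from the deposited table and are printed with the seed, bases 2 to 8, in capitals. RefSeq's miRNA table for GRCh38.p14 held 6 of the 8, and all 6 were identical.
miR-126-3p: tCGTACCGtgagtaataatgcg
miR-126-5p: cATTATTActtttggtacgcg
miR-1-3p: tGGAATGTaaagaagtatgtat
miR-206: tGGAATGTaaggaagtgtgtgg
miR-199b-5p: cCCAGTGTttagactatctgttc
miR-199a-5p: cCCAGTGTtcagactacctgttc
miR-143-3p: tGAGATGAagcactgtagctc
miR-451a: aAACCGTTaccattactgagtt
miR-223-3p: tGTCAGTTtgtcaaatacccca
miR-122-5p: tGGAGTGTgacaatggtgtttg
miR-206 and miR-199a-5p are not on the list and stand here as the closest entries of miR-1-3p and miR-199b-5p, whose seeds they share. With positions counted from 1 at the 5′ end of miR-199b-5p, miR-199a-5p differs by T10C and T17C. Counted likewise from miR-1-3p, miR-206 differs by A11G, A17G, A21G and T22G. For the other 6, the closest entry in an ungapped alignment had 6 to 8 mismatches.

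Both arms of miR-126 come from 1 hairpin, printed with the arms in capitals, from RefSeq for GRCh38.p14 at chr9:136670602-136670686 on the plus strand.
miR-126 hairpin: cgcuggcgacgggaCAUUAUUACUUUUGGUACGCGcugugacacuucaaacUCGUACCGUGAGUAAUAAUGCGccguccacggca
In the table's GRCh38 coordinates miR-126-5p lies at chr9:136670616-136670636 and miR-126-3p at chr9:136670653-136670674, within an intron of EGFL7 in GENCODE 29. miR-451a lies at chr17:28861403-28861424 on the minus strand, in an exon of the lincRNA AC024267.1, which also holds miR-144-5p at chr17:28861583-28861604. miR-199b-5p lies at chr9:128244783-128244805 on the minus strand, opposite an intron of DNM1. miR-1-3p has 2 identical copies, at chr18:21829015-21829036 on the minus strand in an exon of MIR133A1HG, and at chr20:62554351-62554372 in an intron of MIR1-1HG, so its counts cannot be divided between them. miR-143-3p lies at chr5:149428978-149428998 in an exon of CARMN, miR-122-5p at chr18:58451088-58451109 in an exon of MIR122HG, and miR-223-3p at chrX:66018937-66018958.

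Library totals ran from 205734 counts in HF7 unfiltered HDM to 4896921 in regular media, with 313382 in the HF7 pellet and 1246485 or more in every other library. A count of 0 therefore allows up to 14.6 CPM (counts scaled to a library total of 1000000) in HF7 unfiltered HDM, 9.57 CPM in the HF7 pellet and 0.613 CPM in regular media, taking 3 counts as the limit. Of 10 markers of gut and other epithelium, among them miR-200b-3p, miR-192-5p and miR-194-5p, all 10 were detected in all 14 libraries. Together they held 24.9% to 26.2% of the counts in the 4 HDM samples, 29.4% and 32.8% in the pellets and 30.3% to 32.0% on the 6 plates. The epithelial label of the line thus has its markers in every library, at a lower share in HDM samples than in pellets and plates, without overlap. These floors and all intervals below describe counting error alone, as reads are not independent molecules.

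The 8 listed miRNAs with a row were scarce. Together they held from 9 counts in HF7 unfiltered HDM to 600 in HF6 plate 1, or 25.2 CPM in HDM media to 271 CPM in the HF7 pellet. That is at most 0.0271% of a library. miR-126-3p led with 1814 counts over 14 libraries, followed by miR-126-5p with 809, miR-1-3p with 425, miR-199b-5p with 172 and miR-451a with 147. At the other end stood miR-122-5p with 13 counts, miR-143-3p with 10 and miR-223-3p with 7. The first 5 therefore carry all that can be compared, and the last 3 are detections of a few reads. miR-126-3p, miR-126-5p, miR-1-3p and miR-199b-5p had 1 or more counts in all 14 libraries and miR-451a in 13. With 10 or more counts as the limit, the 2 arms of miR-126 and miR-1-3p were present in 13 libraries each, miR-451a in 6 and miR-199b-5p in 5.

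**Figure D1:**
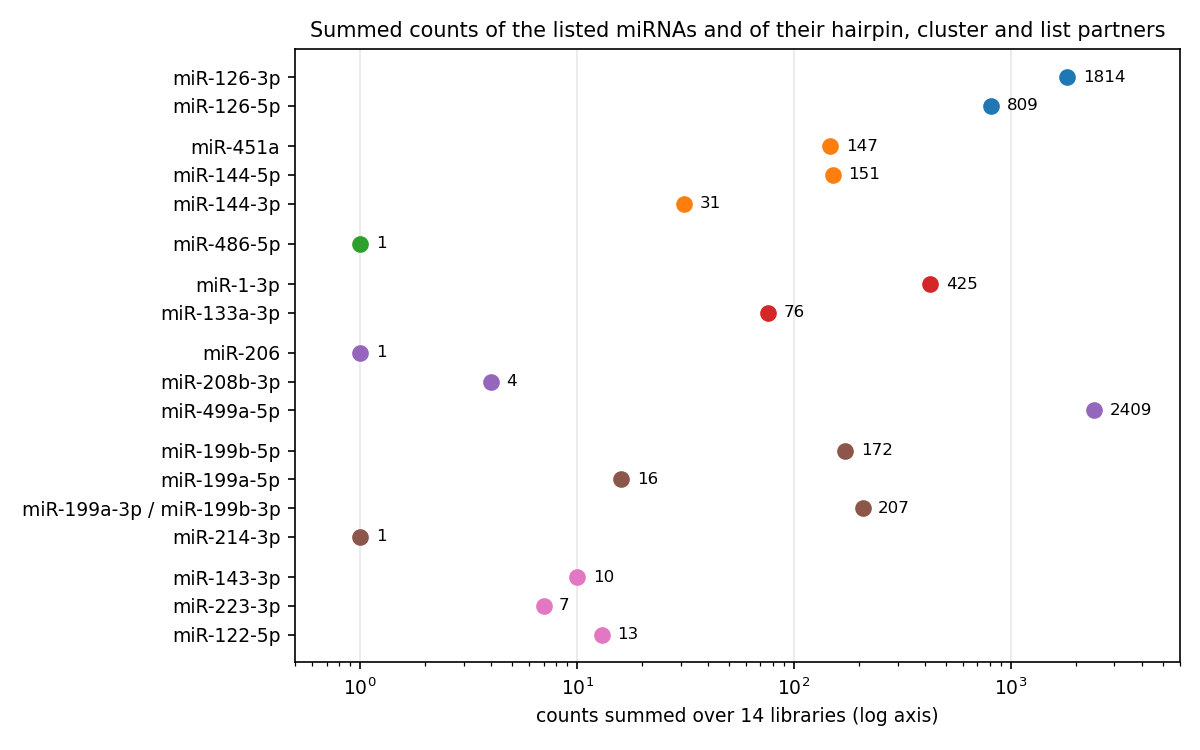
Counts summed over 14 libraries (log axis, number printed beside each point) for the 8 listed miRNAs with a row and for miRNAs of the same hairpin, cluster or marker list; colours group them. Among the points shown miR-499a-5p (2409) and miR-126-3p (1814) lead, while miR-486-5p, miR-206 and miR-214-3p have 1 count each. The miR-142 arms, miR-133b and the epithelial markers are not plotted.

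The companions of these miRNAs did not share 1 level. miR-144-5p, from the same transcript as miR-451a, had 151 counts in all against 147 for miR-451a, and miR-144-3p had 31. miR-486-5p, the other abundant red cell miRNA, had 1 count in all. Among muscle miRNAs, miR-133a-3p, made with miR-1 from the same transcripts, had 76.2 expected counts, miR-208b-3p had 4 and miR-206 had 1. miR-499a-5p, from an intron of the myosin gene MYH7B, stood apart from them with 2409 counts, 10 or more in each of the 14 libraries. Of the fibroblast group, the joint row of miR-199a-3p and miR-199b-3p, whose sequences are identical, had 207 counts, miR-199a-5p had 16 and miR-214-3p had 1. In the myeloid list the defining miR-223-3p had 7 counts, whereas miR-142-3p and miR-142-5p, made in most blood cell lineages, had 71737 and 42473. The fibroblast, muscle, red cell and myeloid lists thus each held entries with 147 counts or more next to entries with 1 to 16. In the liver list, miR-122-5p with 13 counts was the only 1 of 3 names with a row.

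miR-126-3p was the most abundant of the 9 in 13 of 14 libraries and tied with its other arm in the remaining one. It had 25 counts (14.6 CPM) in HF7 and 32 (12.9 CPM) in HF6 filtered HDM, and 3 (14.6 CPM) in HF7 and 67 (29.7 CPM) in HF6 unfiltered HDM. The pellets held 40 counts (128 CPM) for HF7 and 300 (78.3 CPM) for HF6. On plates 2, 3 and 1, HF7 cells had 197, 150 and 250 counts (58.6, 39.3 and 93.8 CPM) and HF6 cells had 261, 41 and 284 (62.4, 32.9 and 75.3 CPM). All 4 HDM samples were below all pellets and plates, and among plates the first of each HF number was highest. The 95% Poisson interval of HF7 unfiltered HDM, 3.01 to 42.6 CPM, reaches into the range of the plates, so that library alone could not place the miRNA. HDM media had 56 counts (11.6 CPM) and regular media 108 (22.1 CPM), both in the range of the HDM samples or just below it. By group mean the order from low to high was filtered HDM, unfiltered HDM, plates 2 and 3, plate 1 and pellets. Neighbours in that order overlapped in their libraries except for unfiltered HDM with plates 2 and 3, and plates 2 and 3 with plate 1. Among all entries miR-126-3p ranked from 147th in the HF7 pellet to 348th in HDM media.

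miR-126-5p, the opposite arm of the same hairpin, had 11 counts (6.42 CPM) in HF7 and 23 (9.27 CPM) in HF6 filtered HDM, and 3 (14.6 CPM) in HF7 and 11 (4.88 CPM) in HF6 unfiltered HDM. The pellets held 11 counts (35.1 CPM) for HF7 and 70 (18.3 CPM) for HF6. On plates 2, 3 and 1, HF7 cells had 96, 80 and 53 counts (28.5, 21.0 and 19.9 CPM) and HF6 cells had 172, 26 and 203 (41.1, 20.9 and 53.8 CPM). The 4 HDM samples were again below all pellets and plates, but here pellets and plates overlapped, and HF6 plate 1, not a pellet, was highest. HDM media and regular media had 24 and 26 counts, or 4.99 and 5.31 CPM.

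**Figure D2:**
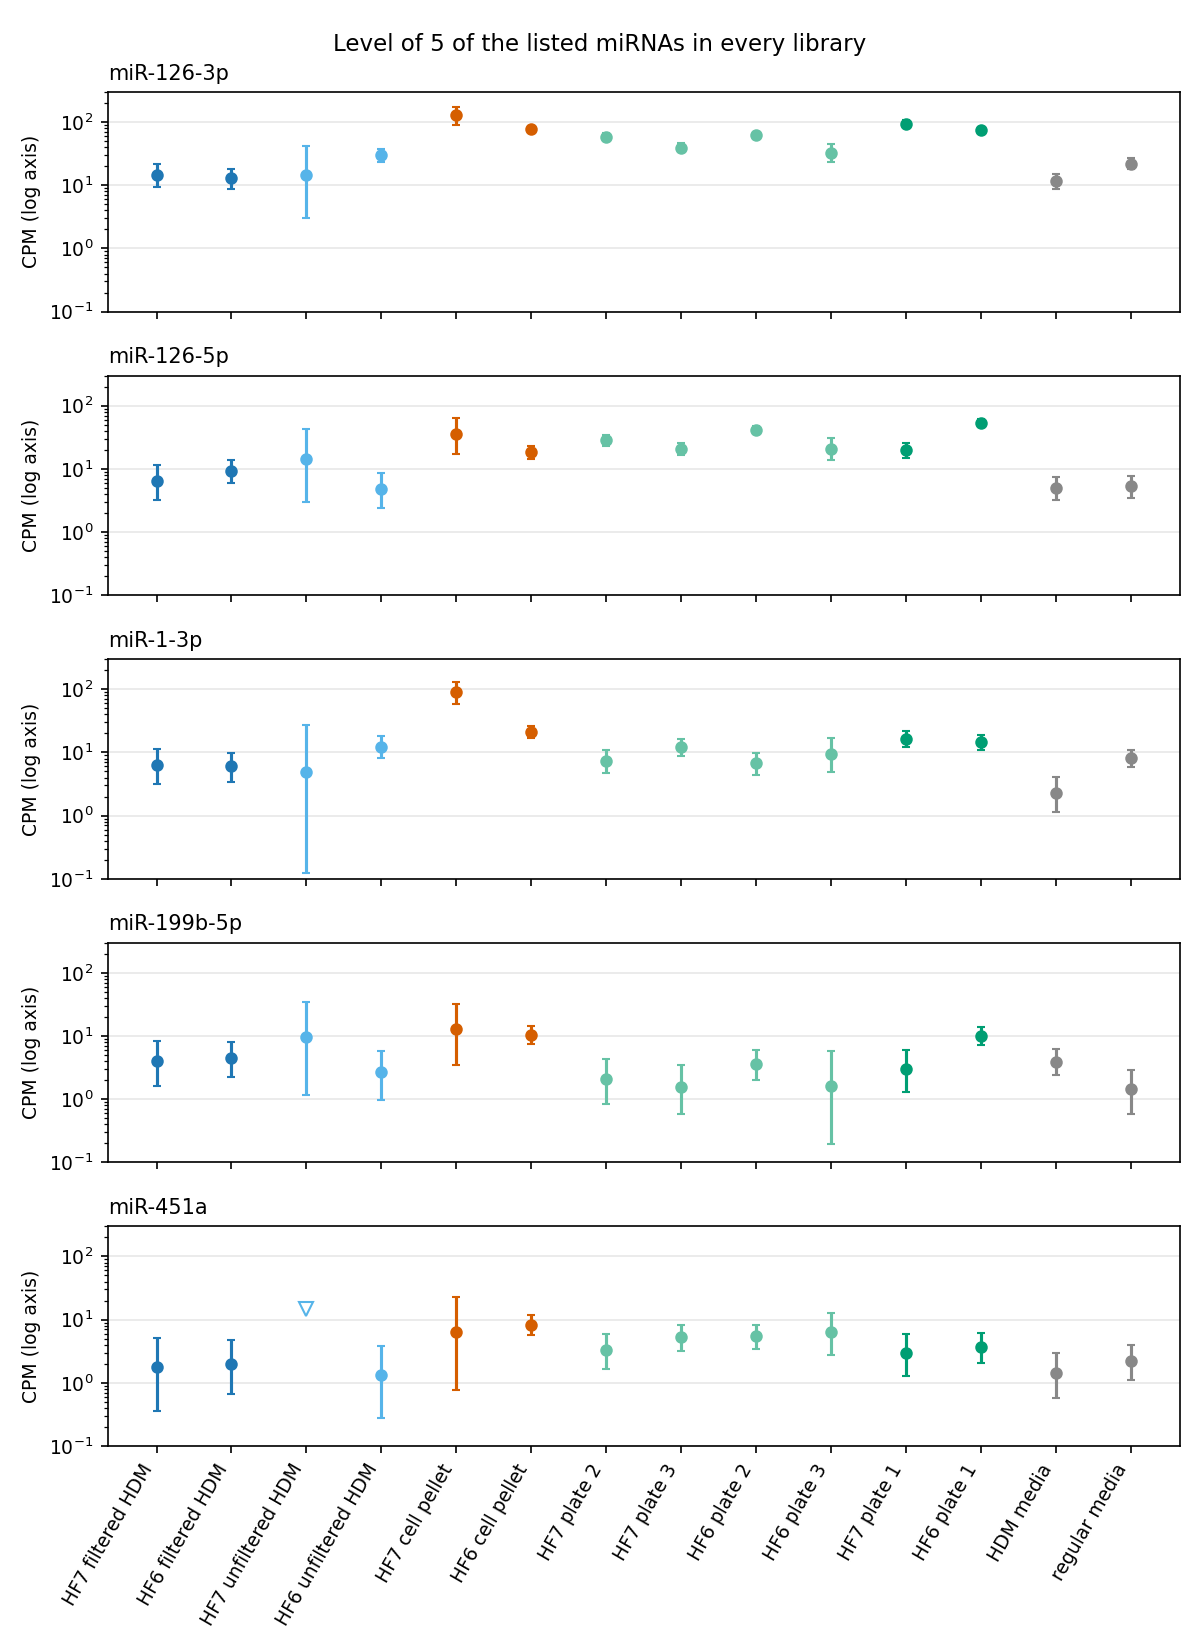
Level of 5 listed miRNAs in 14 libraries, in CPM of the library total on a log axis, with 95% Poisson intervals for counting error; the open triangle marks the floor of 3 counts where miR-451a had 0. miR-126-3p runs from 11.6 CPM in HDM media to 128 CPM in the HF7 pellet, and miR-1-3p is highest in the HF7 pellet at 89.4 CPM.

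The balance of the arms is a property of 1 hairpin and does not depend on library scaling. Over all libraries miR-126-3p made up 69.2% of the 2623 counts of both arms (95% exact binomial interval 67.4 to 70.9%). It made up 78.4% in the HF7 and 81.1% in the HF6 pellet, against 67.2%, 65.2% and 82.5% on HF7 plates 2, 3 and 1, and 60.3%, 61.2% and 58.3% on HF6 plates 2, 3 and 1. HF7 plate 1 (77.8 to 86.6%) and HF6 plate 1 (53.8 to 62.7%) were farthest apart among plates, and their intervals do not meet. The pellets stood above 5 of 6 plates and below HF7 plate 1, so the groups overlapped. In HDM samples the share was 69.4% for HF7 and 58.2% for HF6 filtered HDM, and 50% for HF7 and 85.9% for HF6 unfiltered HDM, the 50% resting on 6 counts. It was 70.0% in HDM media and 80.6% in regular media.

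**Figure D3:**
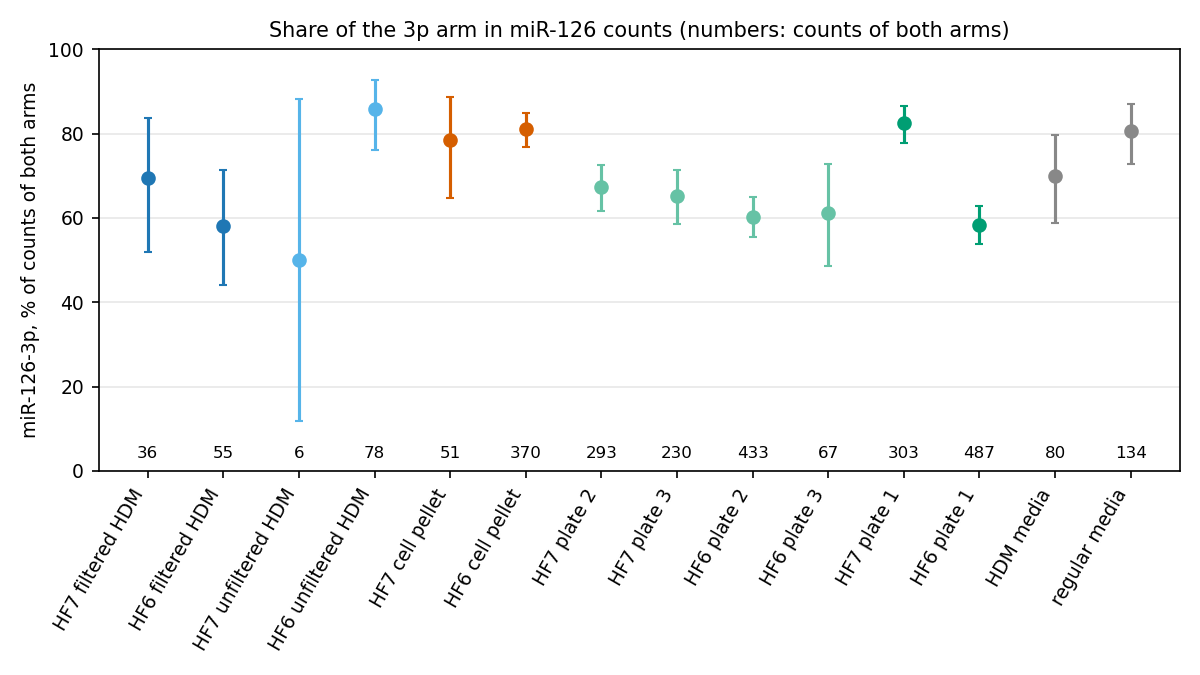
Share of miR-126-3p among the counts of both miR-126 arms in each library, in percent, with 95% exact binomial intervals; the number under each point is the count of both arms. HF7 plate 1 stands at 82.5% and HF6 plate 1 at 58.3%, and the interval of HF7 unfiltered HDM, from 6 counts, spans 11.8 to 88.2%.

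miR-1-3p, a repressor of genes of other fates in heart and skeletal muscle, had 11 counts (6.42 CPM) in HF7 and 15 (6.05 CPM) in HF6 filtered HDM, and 1 (4.86 CPM) in HF7 and 28 (12.4 CPM) in HF6 unfiltered HDM. The pellets held 28 counts (89.4 CPM) for HF7 and 81 (21.2 CPM) for HF6. On plates 2, 3 and 1, HF7 cells had 25, 46 and 44 counts (7.43, 12.1 and 16.5 CPM) and HF6 cells had 28, 12 and 55 (6.69, 9.63 and 14.6 CPM). Both pellets were above all other libraries, and they stood apart from each other, with Poisson intervals of 59.4 to 129 CPM for HF7 and 16.8 to 26.3 CPM for HF6 that do not meet. HDM samples and plates overlapped. HDM media had 11 counts (2.29 CPM), the lowest level of all, and regular media 40 (8.17 CPM). Of its companions, miR-133a-3p was highest in the HF7 pellet too, at 6.38 CPM from 2 counts. miR-499a-5p was highest in HF6 plate 3 (98.7 CPM) and lowest in HF7 plate 2 (27.9 CPM). In the HF7 pellet it stood at 41.5 CPM, below the 71.6 CPM of the HF6 pellet.

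miR-199b-5p, best known from fibroblasts and other mesenchymal cells, had 7 counts (4.09 CPM) in HF7 and 11 (4.44 CPM) in HF6 filtered HDM, and 2 (9.72 CPM) in HF7 and 6 (2.66 CPM) in HF6 unfiltered HDM. The pellets held 4 counts (12.8 CPM) for HF7 and 40 (10.4 CPM) for HF6. On plates 2, 3 and 1, HF7 cells had 7, 6 and 8 counts (2.08, 1.57 and 3.003 CPM) and HF6 cells had 15, 2 and 38 (3.58, 1.61 and 10.1 CPM). The pellets were highest, HF6 plate 1 was close below them, and the other 5 plates lay in the range of the HDM samples or below it. HDM media had 19 counts (3.95 CPM) and regular media 7 (1.43 CPM). Despite the sequence they share, miR-199b-5p and miR-199a-5p were counted unequally, with 172 against 16 counts, so that miR-199b-5p held 91.5% of the pair (86.6 to 95.1%). HF7 plate 1 stood out with 8 against 6 counts. The pair differs at 2 bases, and how reads with a sequencing error there were assigned is not given in the sources used here.

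miR-451a had 3 counts (1.75 CPM) in HF7 and 5 (2.02 CPM) in HF6 filtered HDM, and 0 counts in HF7 and 3 (1.33 CPM) in HF6 unfiltered HDM. The pellets held 2 counts (6.38 CPM) for HF7 and 32 (8.36 CPM) for HF6. On plates 2, 3 and 1, HF7 cells had 11, 20 and 8 counts (3.27, 5.24 and 3.003 CPM) and HF6 cells had 23, 8 and 14 (5.496, 6.418 and 3.71 CPM). The HDM samples were below all pellets and plates, although the 0 in HF7 unfiltered HDM allows up to 14.6 CPM and so could hide a level above every other library. On this scale HF6 plate 3 was as high as the HF7 pellet. HDM media had 7 counts (1.46 CPM) and regular media 11 (2.25 CPM). Its neighbour miR-144-5p had 2 and 2 counts in filtered HDM, 0 and 2 in unfiltered HDM, 4 and 10 in the pellets, and 19, 22 and 5 on HF7 plates 2, 3 and 1, and 38, 9 and 15 on HF6 plates 2, 3 and 1. Over groups, miR-451a made up 34 of 48 counts of the pair in the pellets (70.8%, interval 55.9 to 83.1%) and 84 of 192 on the plates (43.8%, 36.6 to 51.1%). The HF6 pellet gives that difference, since the HF7 pellet had 2 counts of miR-451a and 4 of miR-144-5p.

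The remaining listed miRNAs were at the limit of detection. miR-143-3p, a smooth muscle miRNA, had 2 counts each in HF7 plates 2 and 1, 2 in HF6 plate 2 and 4 in HF6 plate 1, and 0 in HDM, pellets, plate 3 and media. The 0 counts of the 4 HDM samples together allow up to 0.451 CPM, close to the 0.525 CPM of all plates summed. miR-223-3p, which restrains granulocyte production, had 6 counts in HF6 plate 2, 1 in HF6 filtered HDM and 0 in the other 12 libraries. miR-122-5p, the dominant miRNA of hepatocytes, had 1 count in HF7 filtered HDM, 2 in the HF6 pellet, 2 in each plate 1 library, 4 in HDM media and 2 in regular media. In no library did any of these 3 reach 10 counts, and no order can be read from them.

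Differences between groups were tested with edgeR's quasi-likelihood test on 535 miRNAs in 12 libraries, with Benjamini-Hochberg adjustment over all 535 and a call at an adjusted p under 0.05. In the tests, levels are CPM after TMM scaling, which sets libraries relative to the bulk of their miRNAs, and errors of log2 fold changes are standard errors. The low-count filter asked for 3.89 CPM in at least 2 libraries. Of the 8 with a row, 5 passed it. miR-126-3p, miR-126-5p and miR-1-3p did so in all 12 libraries, while miR-451a passed through 2 pellets and 3 plates with no HDM sample, and miR-199b-5p through 2 pellets, 3 HDM samples and 1 plate. A miRNA kept for its level in 1 group had to differ from groups where it is low, so the counts below over these 5 describe them and support nothing further. In samples of many cells, fewer cells of a type and less RNA per cell cannot be told apart. The labels do not say that replicates are separate cultures, and p-values measure the spread between these samples. The 6 plates entered the tests as separate samples, although plates of the same number deviated together (correlations of 0.906, 0.824 and 0.743). The 4 HDM samples also entered as separate samples, although they carry only 2 HF numbers. The n given below may therefore overstate the independent samples.

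Unfiltered HDM was compared with cell pellets to ask which miRNAs are scarcer or more abundant in HDM than in collected cells. Of the 5 tested, 4 were lower in unfiltered HDM and 1 was not called. Of all 535 miRNAs, 11% were called in either direction and 5.61% as lower. Among the 4, miR-451a had passed the filter through no HDM sample, so the filter favoured its call, which supports nothing. miR-126-3p averaged 19.0 ± 11.3 CPM in unfiltered HDM and 127 ± 25.6 CPM in pellets (SD, n = 2 each), and fell by 2.53 ± 0.61 on the log2 scale (edgeR adjusted p = 0.0249). miR-126-5p averaged 7.75 ± 4.70 CPM in unfiltered HDM and 32.7 ± 10.3 CPM in pellets, a log2 fold change of -2.38 ± 0.67 (edgeR adjusted p = 0.0379). miR-1-3p averaged 7.49 ± 5.37 CPM in unfiltered HDM and 65.5 ± 51.0 CPM in pellets, at -2.68 ± 0.75 (edgeR adjusted p = 0.0375). For all 5, both libraries of unfiltered HDM were below both pellets, as for 25.6% of all miRNAs. miR-451a, at -3.24 ± 0.82 (edgeR adjusted p = 0.0279), rests on 3 summed counts in unfiltered HDM and 34 in pellets, a ratio of 0.149 with a counting interval of 0.0292 to 0.472. miR-199b-5p stood at -2.09 ± 0.95 (edgeR adjusted p = 0.152). The calls lean on few libraries. Without the HF7 pellet and HF7 unfiltered HDM, both under 400000 counts, 0 of the 5 was called, beside 1.17% of all miRNAs, and the log2 fold change of miR-1-3p was -1.27. Without HF6 unfiltered HDM 0 of the 5 was called, beside 7 of 594 miRNAs tested, with miR-126-5p at -1.32 and miR-199b-5p at -0.81. Without HF7 unfiltered HDM 0 was called, beside 2.61% of all. Without the HF7 pellet 1 was called, miR-451a, beside 8.07% of all, with miR-1-3p at -1.57. With total counts as the only scaling, 15% of the calls over all miRNAs were lower in unfiltered HDM, against 50.8% with TMM. With that scaling 2 of the 5 were called, both lower. The share of all miRNAs called with it is not given here, so that count shows only how the calls moved.

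Filtered HDM against the same pellets puts that question after filtration. Here 4 of the 5 were lower and 1 was not called, beside 18.1% of all miRNAs called in either direction and 9.35% as lower. Again miR-451a was kept by the filter without any HDM sample, so its call supports nothing. miR-126-3p averaged 12.7 ± 1.72 CPM in filtered HDM and 127 ± 25.6 CPM in pellets (n = 2 each), a log2 fold change of -3.30 ± 0.60 (edgeR adjusted p = 0.0036). miR-1-3p averaged 5.76 ± 0.523 CPM in filtered HDM and 65.5 ± 51.0 CPM in pellets, at -3.38 ± 0.73 (edgeR adjusted p = 0.00836). miR-126-5p stood at -2.08 ± 0.58 (edgeR adjusted p = 0.0238) and miR-451a at -2.53 ± 0.66 (edgeR adjusted p = 0.0186). Both filtered libraries were below both pellets for all 5, as for 27.9% of all miRNAs. miR-199b-5p stood at -1.87 ± 0.80 (edgeR adjusted p = 0.112). Without the HF6 filtered library 0 of the 5 was called, beside 1.84% of all miRNAs, and without the HF7 filtered library 1, beside 5.38%. Without the HF6 pellet 2 were called, and without the 2 shallow libraries 2, miR-126-3p and miR-451a, each time beside 12.5% of all. With total counts as the only scaling, 28.2% of all calls were lower in filtered HDM, against 51.5% with TMM. By that scaling 3 of the 5 were called, all lower, and the share of all miRNAs called is not given here. Both HDM comparisons use the same pellets, so they are not independent of each other.

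The other genes of the marker lists moved with them in part. Of the 10 epithelial markers 6 were lower in unfiltered HDM than in pellets, beside 5.61% of all miRNAs, and 5 in filtered HDM, beside 9.35%. None was called as higher. miR-200b-3p, not called in either, was lower in unfiltered HDM after TMM scaling but higher in CPM of the library total. Their summed share was also lower in HDM. miR-499a-5p, the abundant muscle miRNA, was not called in either, at -0.55 ± 0.60 in unfiltered and -0.71 ± 0.59 in filtered HDM. miR-144-5p stood at -3.07 ± 1.15 (edgeR adjusted p = 0.0946) and -2.76 ± 0.98 (edgeR adjusted p = 0.0638). In the myeloid list, miR-142-5p was lower in filtered HDM at -2.25 ± 0.39 (edgeR adjusted p = 0.00263), while miR-142-3p was not called. The part of the epithelial markers in the results of the listed miRNAs was not tested.

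Filtered HDM was next set against unfiltered HDM, the comparison that bears on the filter. edgeR called 0 of the 5, beside 0% of all miRNAs, and 0 of the 5 had an unadjusted p under 0.05, as had 1.87% of all. DESeq2 also called 0 of the 5. The edgeR fit grouped plates by HF number, with a common biological coefficient of variation of 0.363, against 0.214 with plates grouped by plate number. With that spread and 2 libraries in each group, 0 calls do not show that filtration leaves miRNAs unchanged. Libraries overlapped for 4 of the 5, and miR-451a, with 3 and 5 counts in filtered HDM against 0 and 3 in unfiltered HDM, was higher without overlap in TMM-scaled CPM, as were 23% of all miRNAs. The log2 fold changes were -0.77 ± 0.60 for miR-126-3p, 0.31 ± 0.67 for miR-126-5p, -0.70 ± 0.76 for miR-1-3p, 0.22 ± 0.95 for miR-199b-5p and 0.71 ± 0.90 for miR-451a (edgeR adjusted p = 0.999 for each). Those of miR-126-3p, miR-126-5p, miR-1-3p and miR-199b-5p turned their sign without the HF6 unfiltered library, which leaves 9 counts of the listed miRNAs in the other.

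Cell pellets and plate cells are the cellular collections. Of the 5 tested, 1 was called, miR-1-3p, and it was higher, beside 8.22% of all miRNAs called in either direction and 4.3% as higher. It averaged 65.5 ± 51.0 CPM in pellets (n = 2) and 11.5 ± 4.80 CPM on plates (n = 6), a log2 fold change of 2.38 ± 0.52 (edgeR adjusted p = 0.0172), and both pellets were above all plates. Without the HF7 pellet its log2 fold change was 1.29 (edgeR adjusted p = 0.141, in a range from 0.000379 to 0.144 over its alternatives). miR-199b-5p averaged 14.5 CPM in each pellet and 3.86 ± 3.75 CPM on plates, at 2.01 ± 0.61 (edgeR adjusted p = 0.0614). miR-451a stood at 1.20 ± 0.48 (edgeR adjusted p = 0.108) and miR-126-3p at 1.01 ± 0.43 (edgeR adjusted p = 0.126). The groups did not overlap in TMM-scaled CPM for these 4, as for 13.1% of all miRNAs in this direction, but for miR-126-3p and miR-451a they did overlap in CPM of the library total. miR-126-5p stood at 0.01 ± 0.45, a sign that turns with the scaling. With total counts as the only scaling, 81.2% of all calls were lower in pellets, against 47.7% with TMM. By that scaling 1 of the 5 was called, as higher, and the share of all miRNAs called is not given here. Without the plate 1 libraries 3 of the 5 were higher in pellets, miR-1-3p, miR-199b-5p and miR-126-3p, beside 37.1% of all miRNAs called.

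**Figure D4:**
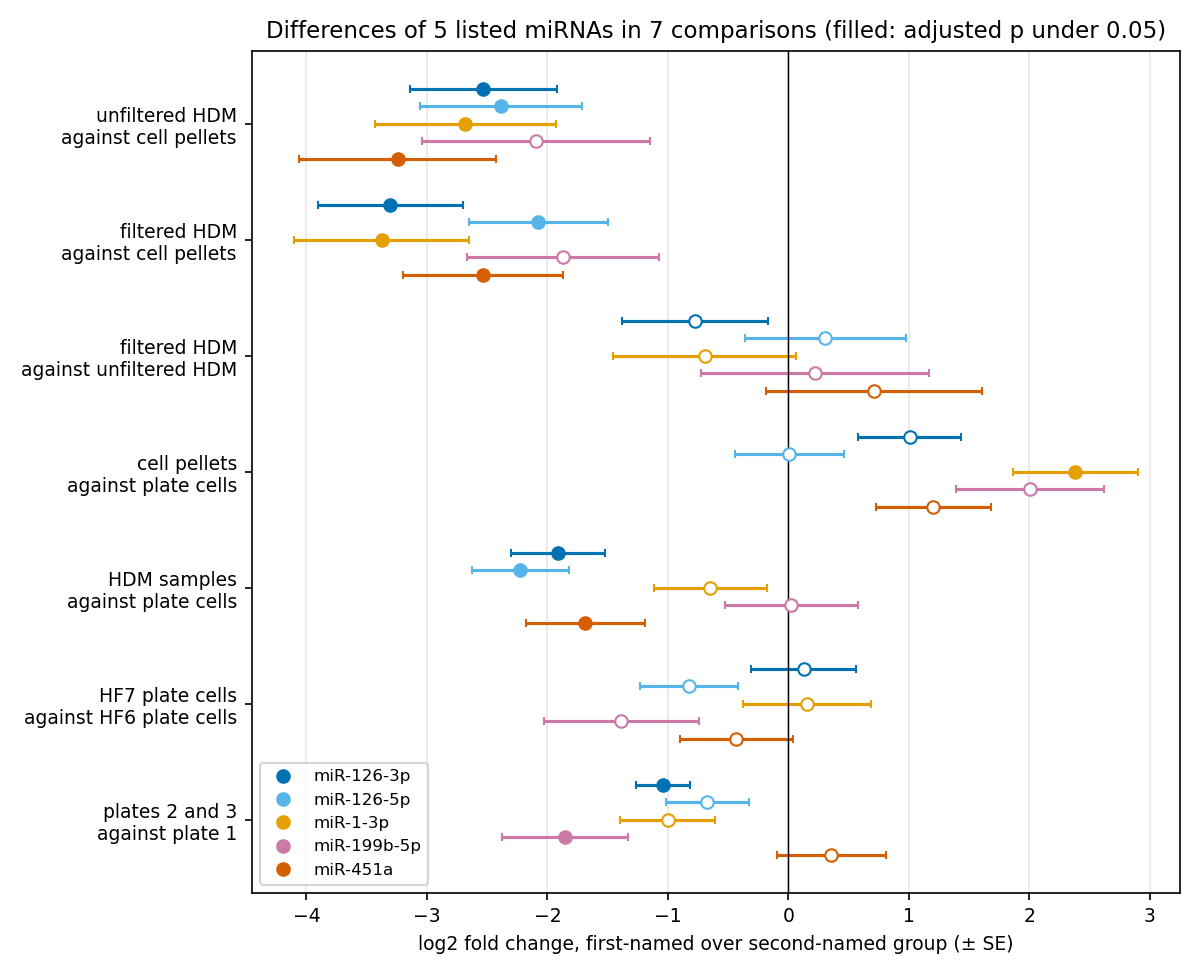
log2 fold change with its standard error for 5 listed miRNAs in 7 comparisons, the first-named group over the second; filled points have an edgeR adjusted p under 0.05. All 5 lie below 0 against pellets in both HDM comparisons, between -1.87 and -3.38, and all 5 have open points for filtered against unfiltered HDM and for HF7 against HF6 plates.

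HDM samples were also set against plate cells, the larger cellular collection. miR-126-3p, miR-126-5p and miR-451a were lower in HDM samples and the other 2 were not called. Of all miRNAs, 9.35% were called in either direction and 5.79% as lower. miR-451a had passed the filter through pellets and plates only, so its call was favoured by the filter and supports nothing. miR-126-3p averaged 15.9 ± 7.52 CPM in HDM samples (n = 4) and 62.3 ± 27.0 CPM on plates (n = 6), a log2 fold change of -1.91 ± 0.39 (edgeR adjusted p = 0.00791). miR-126-5p averaged 7.47 ± 2.87 CPM in HDM samples and 31.7 ± 15.9 CPM on plates, at -2.22 ± 0.40 (edgeR adjusted p = 0.0033). miR-451a averaged 1.17 ± 0.819 CPM in HDM samples and 4.55 ± 1.28 CPM on plates, at -1.69 ± 0.50 (edgeR adjusted p = 0.0481). For these 3, all 4 HDM samples were below all 6 plates, as for 9.53% of all miRNAs. miR-144-5p, the neighbour of miR-451a, stood at -2.72 ± 0.66 (edgeR adjusted p = 0.0193). It reached at most 1.17 CPM of the library total in HDM samples, under the 3.89 CPM of the filter. Its call was thus favoured by the filter as well and supports nothing. miR-1-3p stood at -0.65 ± 0.47 (edgeR adjusted p = 0.397) and miR-199b-5p at 0.03 ± 0.55 (edgeR adjusted p = 0.979), a sign that turns with the HF number in the fit. The test of miR-1-3p thus passed against pellets and not against plates. Since both use the same HDM samples, the difference between them is the contrast of pellets with plates above. There miR-1-3p was called, at 2.38 ± 0.52 (edgeR adjusted p = 0.0172), a call that leaned on the HF7 pellet. Leaving out HF6 filtered HDM or either unfiltered library left 1 of the 3 calls, beside 2.67% to 3.48% of all miRNAs. miR-451a, whose adjusted p was just under the threshold, was not called with total counts, without the low-count filter or by DESeq2 (adjusted p = 0.0661, 0.147 and 0.0737, in a range from 0.026 to 0.247). With total counts as the only scaling, 37.9% of all calls were lower in HDM samples, against 62.0% with TMM.

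Within plate cells, HF7 was compared with HF6, and edgeR called 0 of the 5 and 0% of all miRNAs, as did DESeq2 for the 5. These fits did not pair plates by number, although same-numbered plates deviated together, so differences between plates add to their error. The 0% therefore does not show that the HF numbers are alike. At an unadjusted p under 0.05, 1 of the 5 passed, beside 1.31% of all miRNAs. It was miR-199b-5p, at -1.39 ± 0.64 (edgeR adjusted p = 0.999). On plates 2, 3 and 1 its TMM-scaled level was 2.0, 1.49 and 3.28 CPM for HF7 against 3.44, 1.62 and 11.3 CPM for HF6. miR-126-5p stood at -0.82 ± 0.41, miR-451a at -0.43 ± 0.47, miR-1-3p at 0.15 ± 0.53 and miR-126-3p at 0.13 ± 0.44. The 2 sets of plates overlapped for all 5, while they did not, either way, for 4.67% of all miRNAs. Plate by plate, HF7 was below HF6 in all 3 pairs for miR-199b-5p, miR-451a and miR-126-5p, as for 14.8% of all miRNAs, and above it in all 3 for miR-1-3p, as for 11%. For miR-126-5p plate 3 holds to this in TMM-scaled CPM (19.9 for HF7, 21.1 for HF6) and not in CPM of the library total (21.0 for HF7, 20.9 for HF6). With plate number as a replicate block edgeR again called 0 of the 5, with miR-199b-5p at -1.11, miR-126-5p at -0.73 and miR-451a at -0.50. The share of all miRNAs called with that block is not given here.

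Plates 2 and 3 were compared with plate 1 because an earlier analysis of these data had shown plate 1 apart. The split was thus taken from these same libraries, so the calls below describe it and support nothing further. The labels do not say what the plate number marks. Of the 5, 2 were lower on plates 2 and 3, beside 26.2% of all miRNAs called in either direction and 14.8% as lower. miR-126-3p averaged 46.6 ± 13.3 CPM on plates 2 and 3 (n = 4) and 93.6 ± 12.8 CPM on plate 1 (n = 2), a log2 fold change of -1.04 ± 0.23 (edgeR adjusted p = 0.00372), without overlap. miR-199b-5p averaged 2.14 ± 0.892 CPM on plates 2 and 3 and 7.30 ± 5.68 CPM on plate 1, at -1.85 ± 0.52 (edgeR adjusted p = 0.0165), with overlap. Without HF6 plate 1 the value of miR-199b-5p was -0.64 (edgeR adjusted p = 0.629, in a range from 0.00573 to 0.629), so it rests on that library. miR-1-3p stood at -1.0 ± 0.40 (edgeR adjusted p = 0.0787), also without overlap, as for 26.9% of all miRNAs in this direction. miR-126-5p stood at -0.67 ± 0.34 (edgeR adjusted p = 0.168) and miR-451a at 0.36 ± 0.45 (edgeR adjusted p = 0.603). With total counts as the only scaling, 39.3% of all calls were lower on plates 2 and 3, against 56.4% with TMM. In CPM of the library total, miR-126-3p on plate 1 overlapped the pellets. In TMM-scaled CPM it averaged 93.6 on plate 1 and 127 in pellets, without overlap. The distance between HDM and plates thus depends on the plate. In every library of HDM, however, miR-126-3p was below every plate.

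HDM media and regular media are 1 library each, so their ratios have counting intervals only and no test. Of the listed miRNAs, miR-126-3p alone reached 50 counts, with 56 in HDM media against 108 in regular media, a ratio of 0.528 (0.375 to 0.735). It did not pass 2-fold, which 8.4% of 357 miRNAs with at least 50 counts did. With 10 counts as the minimum, 2 of 5 listed miRNAs passed 2-fold, miR-1-3p with 11 counts in HDM media against 40 in regular media, a ratio of 0.280 (0.1295 to 0.5558), and miR-199b-5p with 19 against 7, a ratio of 2.76 (1.11 to 7.78). They went in opposite directions, and 105 of 583 miRNAs, or 18%, passed 2-fold at that minimum. miR-126-5p had a ratio of 0.940 and miR-451a of 0.648, with intervals that include 1. The listed miRNAs therefore did not stand together between the media.

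The 3 listed miRNAs that averaged 10 CPM or more were matched to the miRNAs of most similar profile, among those averaging 20 CPM or more, by Pearson's r of log2 CPM over the 14 libraries. These correlations are descriptions, since libraries of a group share their source and all share the scaling. miR-126-3p was most like miR-340-5p (r = 0.965), miR-99b-5p (0.928) and miR-148b-5p (0.914). miR-126-5p was most like miR-340-5p (0.834), miR-429 (0.822) and its own opposite arm miR-126-3p (0.806). miR-1-3p was most like miR-151a-3p (0.892), miR-215-5p (0.868) and miR-126-3p (0.827). The opposite arm of miR-126-3p was not among its closest 3, and miR-429 and miR-215-5p are epithelial markers.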

How the data were processed

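Expected counts of reads per mature miRNA were taken as deposited by the authors, in 1 table with 14 library columns, and are not normalized. Per the submitters' processing notes, cutadapt 2.10, Bowtie 1.3.1 and FastQC were used with GRCh38; the counting rule and filters are not given in the sources used here. Per the labels' protocols, RNA came from the miRNeasy kit and libraries from the NEXTflex small RNA kit. Values were rounded to whole counts for the models. In edgeR 4.0.16 (R 4.3.3), 12 libraries were fitted with 1 coefficient per group (filterByExpr, TMM, 7 residual degrees of freedom, common biological coefficient of variation 0.363). A second fit grouped plates by plate number, with 6 residual degrees of freedom and a coefficient of variation of 0.214. The script was tested on simulated data. Alternatives were other scalings, no filter, DESeq2 1.42.0, fewer libraries and replicate blocks. Plates with the same number deviated together (correlations of 0.906, 0.824 and 0.743 between HF7 and HF6), so plate number pairs them. The 9 miRNAs, the marker lists and the comparison of plates 2 and 3 with plate 1 were chosen with earlier results of these data known. So was the naming rule, which takes all 9, every detected list member and the 3 most similar miRNAs. HDM medium without cells was not analysed here.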

Additional observations from a re-analysis of the deposited data

Results flagged for a closer look

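In CPM of the library total, miR-126-5p differed in opposite directions between the plates of the 2 HF numbers. On HF7 plates it was higher on plate 2 than on plate 1 by 8.64 CPM and on plate 3 by 1.07 CPM. On HF6 plates the differences from plate 1 were -12.72 CPM for plate 2 and -32.96 CPM for plate 3. The opposite direction of HF7 plate 3 holds on that scale only, since in TMM-scaled CPM it had 19.9 on HF7 plate 3 and 21.8 on HF7 plate 1. The difference between HF7 and HF6 was not tested. The plate 1 libraries held 19.9 CPM for HF7 and 53.8 CPM for HF6, from 53 and 203 counts. miR-126-3p, cut from the same hairpin, was lower than plate 1 on plates 2 and 3 of both HF numbers.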

How the results depend on the processing

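The numbers of the 5 tested miRNAs called depend on single libraries. Where no share of all miRNAs called stands beside such a number, here or above, it shows only how the calls moved with the setting. For unfiltered HDM against pellets, 4 became 2 with total counts as the only scaling, with no filter, or with only the compared libraries, 0 without the 2 libraries under 400000 counts (an alternative chosen after seeing the data), and 0 to 4 leaving out 1 library. For filtered HDM against pellets, 4 became 2 without those 2 libraries and 0 to 4 leaving out 1. For pellets against plates, 1 became 2 with no filter, 0 with only the compared libraries, 3 without plate 1, 0 without the 2 shallow libraries and 0 to 3 leaving out 1. HDM against plates gave 1 to 3 leaving out 1. Plates 2 and 3 against plate 1 gave 1 in DESeq2 and 1 to 3 leaving out 1. The media gave 2 at a minimum of 10 counts. Without plate 1, 5 were called in both HDM comparisons with pellets, beside 29.6% (unfiltered) and 35.5% (filtered) of all miRNAs. The causes were not tested.

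Signs turned for miR-126-5p in pellets against plates (0.01 as reported): -0.31 with total counts, -0.14 with no filter, -0.031 with HF number as a replicate block, -0.37 without the shallow libraries and -0.34 to 0.29 leaving out 1. For miR-199b-5p in HDM against plates (0.03) the values were -0.14 with that block, -0.14 without the shallow libraries and -0.17 to 0.69 leaving out 1. Leaving out 1 library gave, for filtered against unfiltered HDM, -1.08 to 0.23 for miR-126-3p, -0.57 to 0.71 for miR-126-5p, -0.96 to 0.67 for miR-1-3p and -0.87 to 0.70 for miR-199b-5p. For HF7 against HF6 plates it gave -0.30 to 0.45 for miR-126-3p and -0.18 to 0.62 for miR-1-3p, and for plates 2 and 3 against plate 1, -1.18 to 0.29 for miR-126-5p.

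Correlations of deviations between same-numbered pellets and HDM samples were 0.036, -0.212 and 0.186. With 2 libraries in each group, the HF6 and HF7 deviations mirror each other. These values therefore cannot decide whether the HF number pairs samples. The main tests did not pair them. With HF number as a replicate block, 3 of the 5 were called for unfiltered HDM against pellets and 4 for filtered HDM. In the first of these, miR-1-3p lost its call. The same block gave 1 for pellets against plates, 3 for HDM against plates and 2 for plates 2 and 3 against plate 1. The shares of all miRNAs called with that block are not given here, so these counts say nothing about the 5 in particular. Blocking filtered and unfiltered HDM by HF number, or crossed, gave 0 calls among the 5, and so did plate number as a block for HF7 against HF6. The median log2 fold change of all miRNAs moved by over 0.1 with total counts, from 0.055 to 0.66 for unfiltered HDM and from 0.087 to 0.59 for filtered HDM against pellets, from -0.084 to -0.45 for pellets against plates, from 0.023 to -0.090 for filtered against unfiltered HDM, from -0.095 to 0.076 for HDM against plates and from 0.008 to 0.21 for plates 2 and 3 against plate 1. Depth limits all values under 10 counts.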
